A study of Mus musculus with 24 samples.

Results

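The genes described here encode the subunits of the mitochondrial respiratory chain and of ATP synthase. They were chosen by symbol: names that start with Ndufa, Ndufb, Ndufc, Ndufs, Ndufv, Uqcr, Cox4 to Cox8 or Atp5, the genes Cyc1 and Sdha to Sdhd, and the protein-coding genes of the mitochondrial genome. Pseudogenes named -ps and the Ndufaf assembly factors, 15 genes in all, were dropped. This left 103 of the 51138 genes in the table, of which 90 are nuclear and 13 mitochondrial. Complex I had 41 nuclear and 7 mitochondrial genes, complex II 4 nuclear genes, complex III 9 and 1, complex IV 19 and 3, and complex V 17 and 2. The complex was assigned by the start of the symbol alone, so that Ndufa4 and Ndufa4l2, for example, are counted in complex I.

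RNA was sequenced from whole ceramic constructs of biphasic calcium phosphate (BCP), each made of 40 mg of granules, 2 weeks after placement under the back skin of Foxp3-DTR/eGFP mice aged 8 to 9 weeks. All 6 groups used this strain, in which a diphtheria toxin receptor is driven by Foxp3, and each had 4 animals. BCP constructs carried no cells. BCP+MSC constructs carried passage 2 bone marrow mesenchymal stem cells (MSC) of wild-type C57BL/6J mice. The BCP+MSC+RvE1 group had MSC that were first exposed to resolvin E1 (RvE1), a pro-resolving lipid mediator, at 10 nM in culture, and the BCP+MSC+Treg group had MSC cocultured with regulatory T cells (Treg) sorted from spleens of the same reporter strain. Mice of the (dep)BCP+MSC group received 50 µg/kg of diphtheria toxin, which kills cells that express Foxp3, and unprimed MSC. The (dep)BCP+MSC+RvE1inj group had the same toxin and MSC plus daily local injections of 1 µM RvE1. The study's methods name no vehicle injection for (dep)BCP+MSC, so RvE1 and the injections themselves cannot be told apart. No group received the toxin without the receptor, so the toxin and the loss of Treg cannot be told apart, and seeded and host cells were sequenced together. In such bulk RNA, fewer cells of a type and less RNA per cell cannot be told apart either.

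As background, complexes I and II pass electrons from NADH and succinate to ubiquinone, complex III passes them on to cytochrome c, and complex IV, cytochrome c oxidase, reduces oxygen. Complexes I, III and IV pump protons across the inner membrane, and complex V, ATP synthase, uses the gradient to make ATP. Complex II is encoded by nuclear genes alone, whereas the other complexes mix nuclear subunits with hydrophobic core subunits encoded in the mitochondrial genome. The mitochondrial genes are transcribed as long polycistronic RNAs by a polymerase of their own, so the levels of both sets can vary separately. Muscle fibres and brown adipocytes are rich in mitochondria, and complex IV has isoforms of 3 small subunits, Cox6a2, Cox7a1 and Cox8b, that are typical of heart, skeletal muscle and brown fat in rodents.

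Libraries held 8482701 to 144417743 counts. Nuclear members took 0.555% to 2.58% of the counts of a library and mitochondrial members 0.590% to 3.16%. Of the 103 members, 101 had at least 10 counts in all and were tested. Cox8c, an isoform of testis, had 0 counts and Cox7b2 had 7, which left both out. Values are given as CPM, the usual depth-scaled counts, with library sizes adjusted by the TMM method, and values of 4 animals are listed in the order of their replicate numbers. The reads came from mixed tissue: all 26 markers of skeletal muscle fibres were above 3 counts in every group, and their summed level ran from 454 CPM in BCP+MSC replicate 2 to 51551 CPM in a BCP+MSC+RvE1 library. The 4 brown adipocyte markers summed to at most 29.9 CPM in every library of 4 groups, and reached 575 CPM among the BCP+MSC+Treg libraries and 268 CPM among those of (dep)BCP+MSC+RvE1inj. Ucp1, the uncoupling protein of brown fat, had 17159 counts in BCP+MSC+Treg replicate 1, 2945 in (dep)BCP+MSC+RvE1inj replicate 1 and 157 in replicate 3 of that group. The 6 osteoblast markers summed to 24.8 to 29.8 CPM in BCP, and the medians of the groups ran from 21.9 to 33.8 CPM. Of the 6, Bglap and Ibsp were at or under 3 counts in each BCP library. Bglap was so in each BCP+MSC+Treg library as well.

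The 13 mitochondrial genes fell into 2 sets by how they were counted. The genes mt-Co1, mt-Cytb, mt-Nd1, mt-Nd2, mt-Nd4, mt-Nd5 and mt-Nd6 had 999432 to 10765355 counts over the 24 libraries. The other 6, mt-Co2, mt-Co3, mt-Atp6, mt-Atp8, mt-Nd3 and mt-Nd4l, had 150 to 11244. Of these 6, 5 matched annotated nuclear copies: a stretch of chromosome 1 from 24611535 to 24616197 (GRCm38) holds 7 annotated genes that match mitochondrial genes, and 98.99% to 99.9% of the bases of mt-Co2, mt-Atp6, mt-Co3, mt-Nd3 and mt-Nd4l lay in a copy of at least 99% identity. A read that aligned equally well to both places was not counted. Gm28661, identical to mt-Co2 over 681 bases, had 22932 counts against 10476 for mt-Co2, Gm10925 had 15377 against 3027 for mt-Atp6, and Gm28437 had 26776 against 11244 for mt-Co3. The share of bases in such a copy was 63.6% for mt-Nd4, 31.3% for mt-Co1 and 0% for the other well-counted genes. No annotated copy was found for mt-Atp8 (chrM:7766-7969), which had 343 counts. Its place lies between mt-Co2 and mt-Atp6, whose copies stand 233 bases apart on chromosome 1, the same distance as on the mitochondrial genome, and its last 43 bases are shared with mt-Atp6 and identical in Gm10925. The sequence of chromosome 1 over its other bases was not used here. How far copies lowered each gene was not tested, and all 6 genes are uncertain.

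The first 120 bases of the coding sequence show the difference between a stretch that can be told from a given nuclear copy and one that cannot. 1 copy of mt-Co1, Gm29216 on chromosome 1, is not shown and is 99.8% identical over 483 bases. For mt-Atp6 (chrM:7927-8046) and Gm10925 (chr1:24614532-24614651, minus strand) the 120 bases are the same. For mt-Co1 (chrM:5328-5447) and another copy, Gm13340 (chr2:22589528-22589647), 3 bases differ, shown in capitals. All are from GRCm38, 5′ to 3′ in the sense of the mitochondrial gene.
mt-Atp6: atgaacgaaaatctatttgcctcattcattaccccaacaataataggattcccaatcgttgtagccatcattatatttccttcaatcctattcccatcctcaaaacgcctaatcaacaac
Gm10925: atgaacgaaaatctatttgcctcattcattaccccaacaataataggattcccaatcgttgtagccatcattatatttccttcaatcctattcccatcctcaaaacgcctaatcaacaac
mt-Co1: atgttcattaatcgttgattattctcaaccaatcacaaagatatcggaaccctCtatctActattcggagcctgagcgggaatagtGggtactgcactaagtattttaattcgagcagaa
Gm13340: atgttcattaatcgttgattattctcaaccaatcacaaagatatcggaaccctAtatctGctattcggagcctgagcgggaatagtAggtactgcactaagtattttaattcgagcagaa

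Per kilobase of exon, mt-Co1 was the most abundant of the 13, at a mean of 4941 CPM per kilobase over the 24 libraries. It was followed by mt-Cytb at 2630.3, mt-Nd1 at 2617, mt-Nd6 at 1946, mt-Nd2 at 1567, mt-Nd4 at 1011 and mt-Nd5 at 425. Reads of mt-Nd6, which lies on the other strand, and of mt-Nd5 were assigned without regard to strand. The 6 other genes had means from 0.353 (mt-Nd4l) to 12.7 (mt-Co2) CPM per kilobase. The best-counted nuclear members per kilobase were Cox4i1 at 408, Cox6b1 at 384 and Cox6a1 at 343, all of complex IV, then Ndufa2 of complex I at 268 and Cox8a of complex IV at 266. Only mt-Nd5 among the 7 well-counted mitochondrial genes was close to the level of Cox4i1, and the other 6 had higher means.

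**Figure D1:**
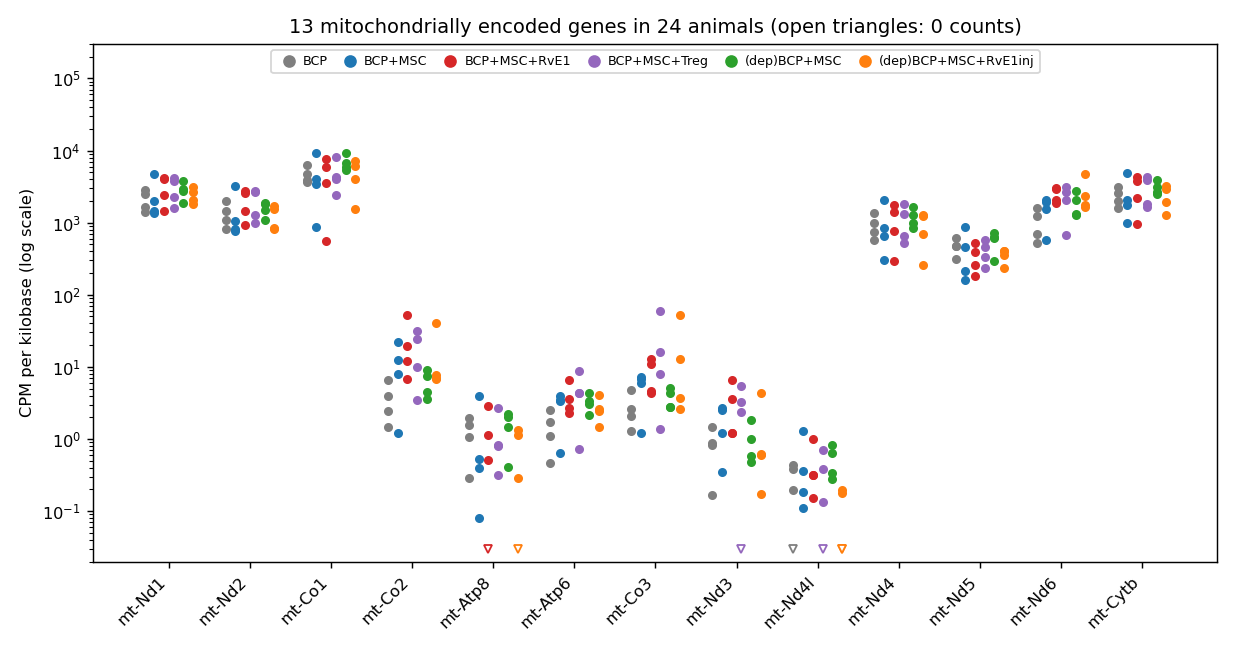
CPM per kilobase (log scale) of the 13 mitochondrial genes in each animal, coloured by group, with open triangles for libraries with 0 counts. The 7 genes from mt-Nd5, with a mean of 425, to mt-Co1, with a mean of 4941, stand apart from the 6 genes with means of 12.7 or less.

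The level of mitochondrial relative to nuclear members varied widely between animals of the same group. Summed per kilobase, mitochondrial genes were 2.52 ± 0.48 times (SD, n = 4) the nuclear members in BCP, 2.02 ± 1.37 times in BCP+MSC, 1.52 ± 0.98 times in BCP+MSC+RvE1 and, for the Treg constructs, 1.86 ± 1.16 times. In the toxin-treated groups the ratio was 2.45 ± 0.70 in (dep)BCP+MSC and 1.62 ± 0.73 in (dep)BCP+MSC+RvE1inj. The ratio ran from 0.51 to 2.83 among the 4 BCP+MSC+RvE1 animals and from 1.91 to 2.93 among the 4 BCP animals, so the ranges overlapped. As a mean of log2 CPM over genes, nuclear minus mitochondrial members gave 0.01 ± 0.25 in BCP, 0.29 ± 0.81 in BCP+MSC, 0.49 ± 0.59 in BCP+MSC+RvE1 and, for the Treg constructs, 0.29 ± 0.50. The (dep)BCP+MSC animals gave -0.03 ± 0.41 and the (dep)BCP+MSC+RvE1inj animals 0.58 ± 0.64, so that SDs were as large as most of the differences between groups.

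Within the mitochondrial set the genes did not move as one. In 3 libraries, BCP+MSC replicate 3, BCP+MSC+RvE1 replicate 2 and (dep)BCP+MSC+RvE1inj replicate 3, mt-Co1 was low, at 1345, 861 and 2417 CPM. The other libraries ran from 3696 to 14144 CPM. In the same 3 libraries mt-Nd6 stood at 1080.2, 1558 and 2485 CPM, the highest of its own group in each case. Uqcrc2, a nuclear core subunit of complex III, had its lowest values in these libraries as well, at 32.7, 15.4 and 39.2 CPM, against 56.7 to 167 CPM in the others.

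The nuclear members varied together from animal to animal. The mean log2 CPM of the 88 tested nuclear members was 5.31 ± 0.54 (SD, n = 4) in BCP, 5.83 ± 0.77 in BCP+MSC, 6.45 ± 0.31 in BCP+MSC+RvE1 and, for the Treg constructs, 6.22 ± 1.06. It was 5.84 ± 0.48 in (dep)BCP+MSC and 6.17 ± 0.56 in (dep)BCP+MSC+RvE1inj. The lowest library was BCP replicate 4 at 4.65, followed by BCP+MSC replicate 2 at 4.71 and BCP+MSC+Treg replicate 4 at 4.75, and the highest was BCP+MSC+Treg replicate 1 at 7.22. The 4 BCP+MSC+RvE1 animals, at 6.03 to 6.69, did not overlap the 4 BCP animals, at 4.65 to 5.88, whereas BCP+MSC+Treg spanned 4.75 to 7.22.

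Each complex showed the same order of the 2 groups. Mean log2 CPM of the nuclear subunits in BCP+MSC+RvE1 and in BCP was 6.18 ± 0.36 against 4.93 ± 0.56 (SD, n = 4) for complex I, 7.68 ± 0.20 against 6.98 ± 0.46 for complex II, 7.45 ± 0.30 against 6.44 ± 0.55 for complex III, 5.16 ± 0.38 against 4.01 ± 0.54 for complex IV and 7.71 ± 0.27 against 6.65 ± 0.49 for complex V. For none of the 5 complexes did the ranges of these groups overlap. The 7 well-counted mitochondrial genes gave 10.79 ± 0.79 against 10.60 ± 0.43, and here the ranges overlapped. The mean level of a complex also reflects how many low isoforms it holds, so levels were not ranked between complexes.

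**Figure D2:**
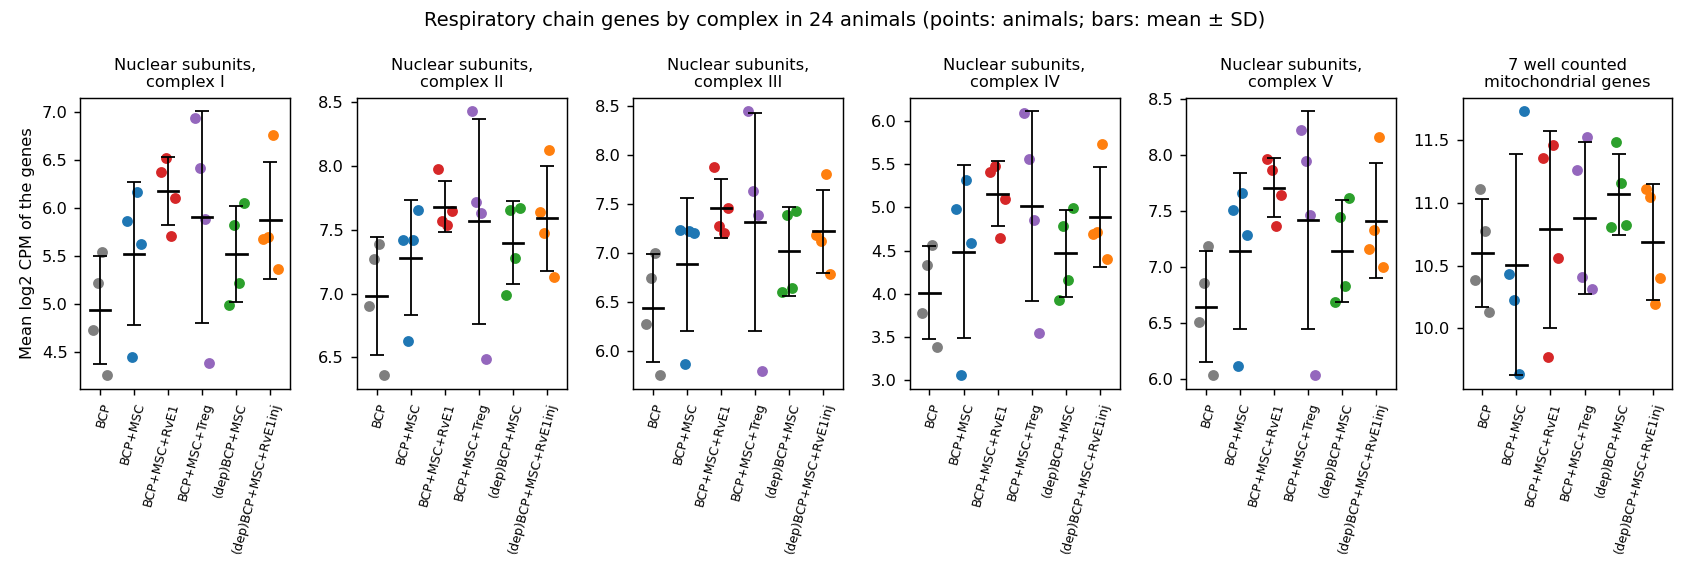
Mean log2 CPM of the nuclear subunits of each complex and of the 7 well-counted mitochondrial genes, 1 point per animal, with bars for mean ± SD (n = 4 per group). Complexes I to V share 1 pattern over the animals, with BCP+MSC+RvE1 above BCP in each, and the mitochondrial genes overlap between all groups.

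The likeness of a member to the rest was taken as Pearson's correlation of its log2 CPM with the mean of the other nuclear members over the 24 libraries, as a description: the points share 6 groups, library depth and tissue makeup. Of 88 nuclear members, 64 had a correlation above 0.9, 74 above 0.8 and 82 above 0.5. Of the 13 mitochondrial genes, 2 were above 0.9, 3 above 0.8 and 5 above 0.5. The mitochondrial genes closest to the nuclear mean were mt-Nd6 (0.95) and mt-Co2 (0.92), and the farthest were mt-Nd5 (-0.44), mt-Atp8 (-0.30) and mt-Co1 (-0.29). Among nuclear members Uqcrc2 stood lowest (-0.20), and 19.7% of its exon bases are shared with the neighbouring gene Pdzd9. Ndufa4l2, a paralog of Ndufa4 known as a hypoxia-induced gene, had 0.26, and the large catalytic subunits Ndufs1 of complex I, Sdha of complex II and Atp5b of complex V had 0.44, 0.48 and 0.51.

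The nuclear members were set beside 2 measures from other genes, the offset between genes of short and long exon length and the muscle fibre markers. Each was used as a covariate. Genes of short exon length varied between libraries against genes of long exon length. Exon length is the summed length of all annotated exons of a gene, not the length of a transcript. The offset between the median of 255 non-member genes under 1000 exon bases and the median of 3099 genes over 6000, each gene taken relative to its own mean, was -0.62 ± 0.48 (SD, n = 4, log2) in BCP and -0.06 ± 0.93 in BCP+MSC. It was 0.53 ± 0.44 in BCP+MSC+RvE1, 0.22 ± 0.94 in BCP+MSC+Treg, -0.32 ± 0.62 in (dep)BCP+MSC and 0.28 ± 0.45 in (dep)BCP+MSC+RvE1inj. Nuclear members are short, with a median of 1348.5 exon bases against 4344 for genes with a mean log2 CPM above 3, and 31 of the 90 are under 1000 bases. The summed level of the 26 muscle fibre markers ran from 6387 to 26641 CPM in BCP, 454 to 33337 in BCP+MSC, 28224 to 51551 in BCP+MSC+RvE1 and, for the Treg constructs, 5819 to 40546. In the toxin-treated groups it ran from 30526 to 48068 CPM in (dep)BCP+MSC and from 9140 to 38903 in (dep)BCP+MSC+RvE1inj.

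**Figure D3:**
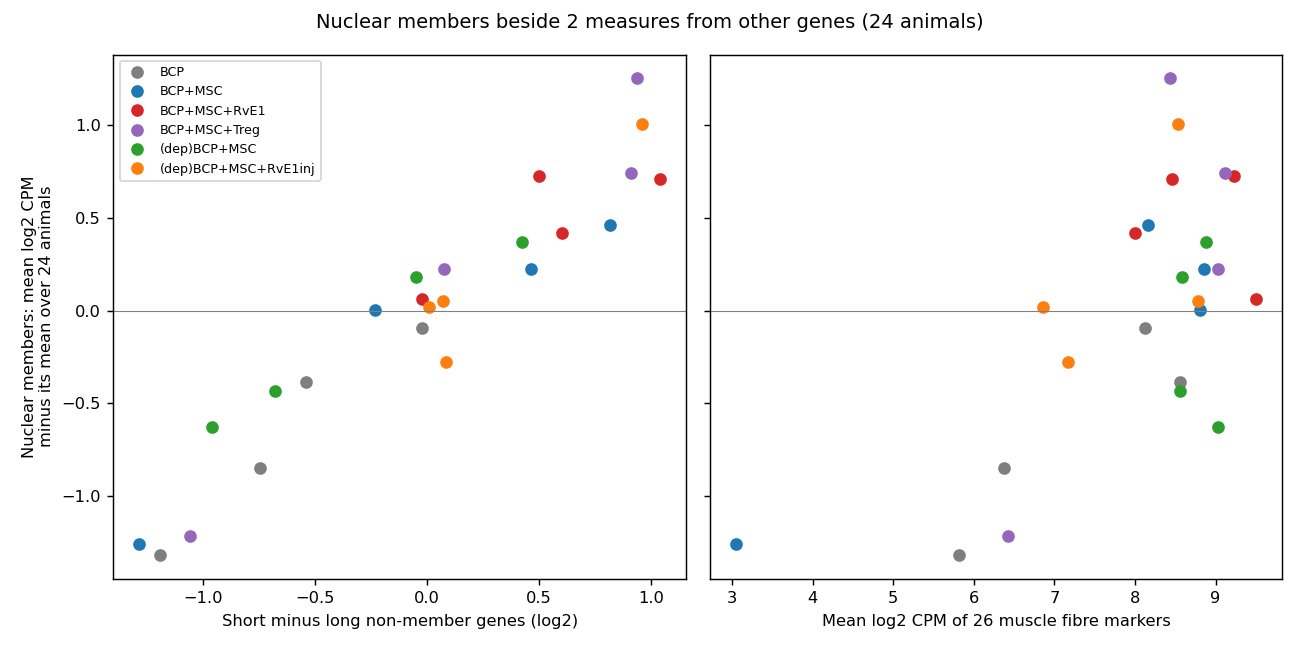
Mean log2 CPM of the nuclear members, relative to their mean over 24 animals, against the short-minus-long offset of non-member genes (left, log2) and against the mean log2 CPM of 26 muscle fibre markers (right), 1 point per animal coloured by group. Animals with a higher short-gene offset had higher nuclear members, and the library with the lowest muscle markers, BCP+MSC replicate 2, was among the 3 lowest for nuclear members.

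Seeding MSC on the granules was compared with granules alone. No member passed an adjusted p under 0.05 in edgeR's quasi-likelihood test, as was true of all 30564 genes tested (0%), and by DESeq2 no member did either. At an unadjusted p under 0.05, 2 members were higher and 0 lower, against 2.99% and 2.07% of all genes. The 2 were Ndufv3, a small subunit of the NADH-binding part of complex I (ENSMUSG00000024038.16, chromosome 17, 31520115 to 31531326), and Cox4i2, the lung-type and hypoxia-responsive isoform of a complex IV subunit. Ndufv3 had 48.6, 61.9, 76.7 and 34.1 CPM in BCP and 119, 44.9, 147 and 84.0 CPM in BCP+MSC. BCP+MSC replicate 2 lay inside the BCP range, so the groups overlapped, with a log2 fold change of 0.83 ± 0.35 (SE) and an adjusted p of 0.888. The log2 fold change was above 0 for 97 of the 101 members, with a median of 0.65 for nuclear and 0.17 for mitochondrial members against 0.06 for all genes. The 9 monocyte and macrophage markers summed to 5839 to 6959 CPM in BCP+MSC against 7400 to 9195.5 CPM in BCP, without overlap. Their mean log2 CPM overlapped, at 8.17 to 8.64 against 8.20 to 8.75. The part of these cells in the members' values was not tested. Cox4i2 stood at 2.10, 1.83, 11.1 and 2.38 CPM in BCP+MSC, where replicate 3 alone was far above the BCP animals at 2.51, 1.39, 2.34 and 1.38 CPM. Ndufa4l2 had 71.4, 38.9, 195 and 45.1 CPM in BCP+MSC and 16.2, 46.2, 48.3 and 55.5 CPM in BCP, which also overlapped (log2 fold change 1.08 ± 0.52, SE). BCP+MSC replicate 2, the library with the fewest muscle reads, decided the count: without it 35 members were higher, where 5.61% of all genes were. With the short-minus-long offset as a covariate, chosen after seeing the data, 1 member was higher (1.81% of all genes) and the nuclear median was 0.03, and with the muscle markers 6 were (3.04% of all genes), at a median of 0.59.

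Constructs with RvE1-primed MSC were compared with granules alone, and most nuclear members had higher levels in them. At an unadjusted p under 0.05, 69 of 101 members were higher and 0 lower, where 8.86% of all genes were higher and 6.7% lower. None passed an adjusted p under 0.05 in edgeR's quasi-likelihood test (0% of all genes; lowest adjusted p among members 0.30), and by DESeq2 76 members were higher at an unadjusted p (9.41% of all genes) and 0 passed the adjusted one. The median log2 fold change was 1.16 for the 88 nuclear and 0.52 for the 13 mitochondrial members, against 0.03 for all genes. Of the nuclear members 66 were higher, and of the mitochondrial genes 3, namely mt-Co2, mt-Nd6 and mt-Atp6. Markers of other cell types also differed between these groups. The 4 neutrophil markers summed to 252 to 430 CPM in BCP+MSC+RvE1 against 84.8 to 234 CPM in BCP, without overlap, whereas their mean log2 CPM overlapped, at 2.78 to 3.49 against 1.17 to 3.37. The 10 adipocyte markers summed to 2307 to 7522 CPM against 23.6 to 2619 CPM, with overlap, whereas their mean log2 CPM did not overlap, at 6.92 to 8.57 against -0.38 to 6.88. The 8 fibroblast and stromal markers had a median sum of 17548 CPM against 34380 CPM, with overlapping ranges. The part of these cell types in the members' values was not tested.

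In complex I, 34 of 41 nuclear subunits were higher at an unadjusted p under 0.05, with a median log2 fold change of 1.21. Ndufv3 had 142, 131, 95.0 and 131 CPM in BCP+MSC+RvE1, all above the highest BCP animal at 76.7 CPM, with a log2 fold change of 1.17 ± 0.36 (SE, unadjusted p = 0.00313, adjusted p = 0.300). The exact two-sided permutation test gave p = 0.0286, the smallest that 70 arrangements of 4 against 4 allow. Ndufv2, a flavoprotein subunit that carries an iron-sulfur cluster (ENSMUSG00000024099.14, chromosome 17, 66078795 to 66101559), stood at 213, 289, 113 and 157 CPM against 50.3, 72.9, 91.3 and 35.4 CPM in BCP. Its groups did not overlap either, and the log2 fold change was 1.63 ± 0.51 (SE). Ndufs4, a subunit needed for the assembly of complex I, had 132, 124, 81.9 and 101 CPM against 38.4, 55.0, 61.6 and 27.9 CPM, again without overlap (1.26 ± 0.41, SE, log2 fold change).

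The highest fold change in complex I belonged to Ndufa5, at 2.03 ± 0.71 (SE, log2), with 163, 304, 74.1 and 104 CPM in BCP+MSC+RvE1 and 27.6, 44.3, 61.6 and 23.9 CPM in BCP. The lowest nuclear value was that of Ndufa11b (0.26), which stayed at or under 0.231 CPM in all 24 libraries, and mt-Nd5 was lower still (-0.46 ± 0.42, SE). Of the 7 nuclear core subunits, shared with bacterial forms of the enzyme, 6 were higher. Ndufs1, the largest of the core subunits, was the exception, at 127, 71.5, 117 and 84.3 CPM against 67.3, 94.5, 81.8 and 52.9 CPM with overlapping groups (0.43 ± 0.28, SE, unadjusted p = 0.136). The mitochondrial core subunits mt-Nd1, mt-Nd2 and mt-Nd4 had log2 fold changes of 0.52 ± 0.39, 0.52 ± 0.44 and 0.21 ± 0.57 (SE), and mt-Nd6 had 1.27 ± 0.46.

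In complex II, 3 of 4 genes were higher, with a median log2 fold change of 0.74. Sdhb, the iron-sulfur subunit, had 237, 161, 149.6 and 175 CPM against 87.8, 105, 131 and 50.3 CPM in BCP, without overlap (0.95 ± 0.41, SE, log2). Sdha, the flavoprotein subunit, had 376, 189.7, 321 and 295 CPM against 241, 314, 276 and 161 CPM, which overlapped (0.25 ± 0.29, SE, unadjusted p = 0.398). In complex III, 6 of 9 nuclear subunits were higher, with a median of 1.13. The highest was Uqcrq, a small subunit near cytochrome b, at 1.49 ± 0.57 (SE, log2), and the catalytic Rieske protein Uqcrfs1 had 217, 142, 115 and 159 CPM against 59.7, 95.5, 105 and 40.7 CPM without overlap (1.07 ± 0.47, SE). Cyc1, cytochrome c1, had 0.76 ± 0.41, the core protein Uqcrc1 0.67 ± 0.34 and Uqcrc2 0.06 ± 0.51, while mitochondrial mt-Cytb had 0.27 ± 0.45 (SE, log2).

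In complex IV, 11 of 17 nuclear subunits were higher, with a median log2 fold change of 1.27. Cox4i1, a large nuclear subunit that takes part in regulation by ATP (ENSMUSG00000031818.12, chromosome 8, 120668222 to 120674207), had 874, 991, 514 and 778 CPM against 284, 339, 490.5 and 194 CPM in BCP. The groups did not overlap, at 1.27 ± 0.47 (SE, log2). Its low isoform Cox4i2 had 4.11, 4.39, 1.99 and 5.57 CPM against 2.51, 1.39, 2.34 and 1.38 CPM and overlapped (1.07 ± 0.54, SE). Cox5a had 1.52 ± 0.65 (SE), Cox6b1 1.31 ± 0.47 and Cox7b 0.96 ± 0.37. The highest was Cox8b and the lowest Cox8a, which are isoforms of 1 subunit and are described with the other isoforms. Of the catalytic subunits, all mitochondrial, mt-Co1 had -0.08 ± 0.61 (SE, log2). The sparsely counted mt-Co2 and mt-Co3 had 2.59 ± 0.85 and 1.58 ± 0.91. The values of mt-Co2 were 13.2, 35.3, 4.69 and 8.18 CPM against 0.991, 2.70, 4.51 and 1.70 CPM, without overlap.

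In complex V, 12 of 17 nuclear subunits were higher, with a median of 1.12. The range ran from Atp5e, the small epsilon subunit of the central stalk, at 1.96 ± 0.73 (SE, log2), to the catalytic beta subunit Atp5b at 0.24 ± 0.30. Atp5e had 301, 669.5, 154 and 257 CPM against 80.1, 89.4, 144 and 40.9 CPM in BCP, with all BCP+MSC+RvE1 animals higher. Atp5b had 1186, 442, 969 and 909 CPM against 677, 919, 868 and 506 CPM, with overlap. The alpha subunit Atp5a1 had 0.54 ± 0.27 (SE), and the genes Atp5g1, Atp5g2 and Atp5g3, which encode 1 identical mature c-ring subunit, had 1.17 ± 0.41, 0.47 ± 0.27 and 1.12 ± 0.42. Of the 5 subunits of the F1 catalytic part, 3 were higher. The mitochondrial mt-Atp6 and mt-Atp8, both sparsely counted, had 1.35 ± 0.59 and -0.08 ± 0.98 (SE).

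These differences moved with the measures from other genes. Genes with a mean log2 CPM above 3 that were tested were split by exon length. As this sums all annotated exons, genes of a class are not matched for transcript length. Under 1000 bases, 50.2% of 253 other genes were higher in BCP+MSC+RvE1 at an unadjusted p under 0.05, with a median log2 fold change of 0.88, against 83.3% of 24 nuclear members, with a median of 1.29. From 1000 to 6000 bases, where most of these members lie, 16.7% of 6692 other genes were higher (median 0.13) against 79.6% of 54 members (1.13). Over 6000 bases, 3.71% of 3099 other genes were (-0.27) against 66.7% of 3 members (1.21). With the short-minus-long offset as a covariate, chosen after seeing the data, 0 members were higher and 1 lower. Of all genes 1.71% were higher and 1.29% lower, and the nuclear median was 0.12. With the muscle markers as a covariate, 34 members were higher, where 4.19% of all genes were, and the nuclear median was 0.76. Without BCP replicate 4, the library with the lowest nuclear members, 39 members were higher (4.41% of all genes).

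**Figure D4:**
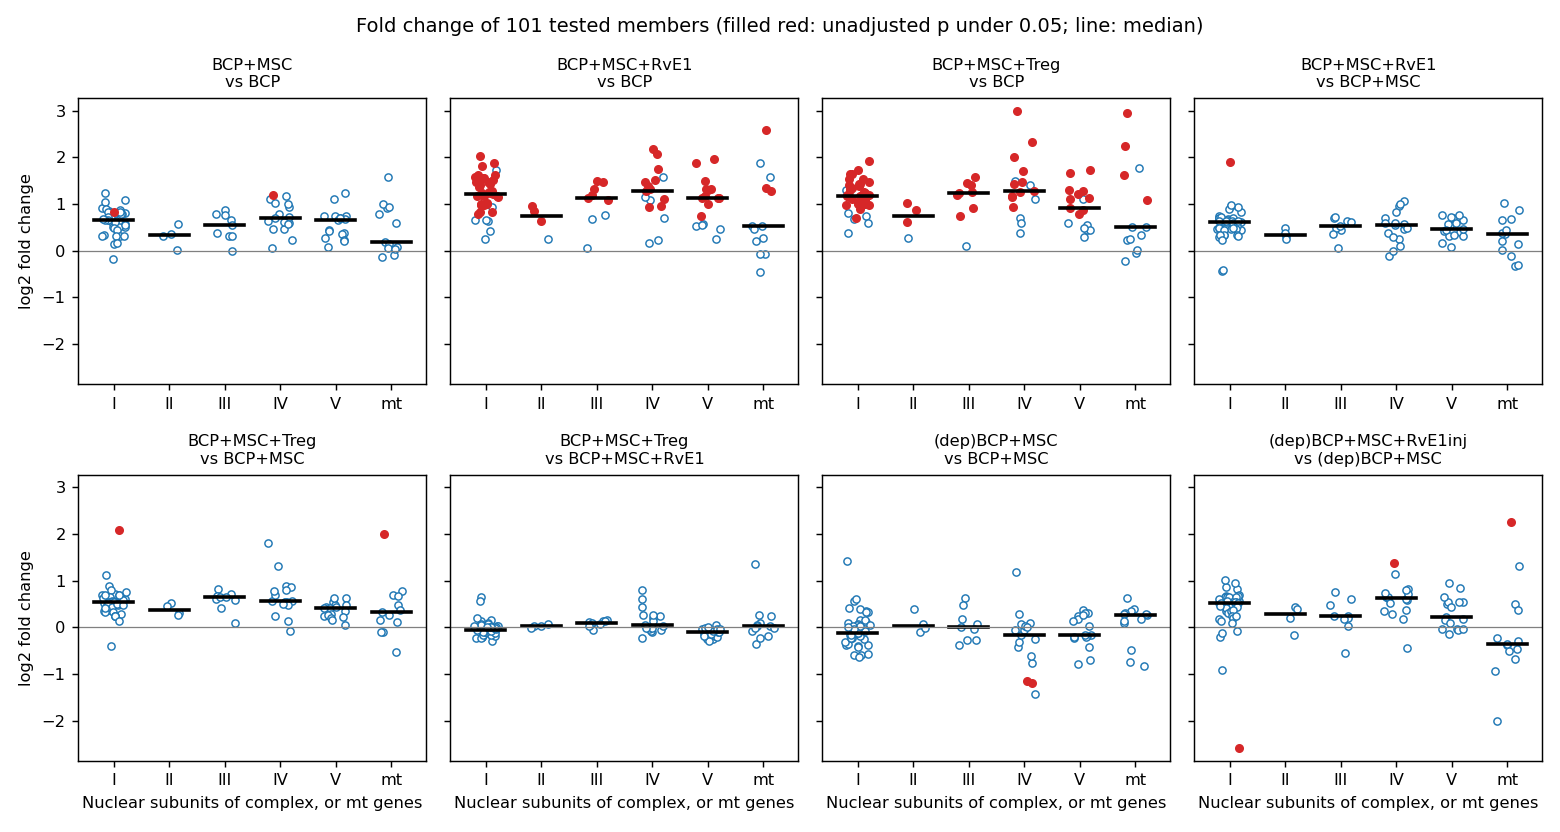
Log2 fold change of each of the 101 tested members in 8 comparisons, by complex for nuclear subunits and together for mitochondrial genes (mt), with lines at the medians and filled points at an unadjusted p under 0.05. In the BCP+MSC+RvE1 panel and the BCP+MSC+Treg panel against BCP most nuclear members of every complex lie above 0 (median 1.16 in both), and in (dep)BCP+MSC against BCP+MSC they lie around 0 (median -0.07).

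Constructs with Treg and MSC were compared with the same 4 BCP animals, so the controls are shared with the comparison above. At an unadjusted p under 0.05, 71 of 101 members were higher and 0 lower, where 4.98% of all genes were higher and 2.62% lower. No member passed the adjusted p (0% of all genes; lowest among members 0.614, edgeR's quasi-likelihood test), by DESeq2 none did and 77 were higher at an unadjusted p (4.97% of all genes). The median log2 fold change was 1.16 for nuclear and 0.51 for mitochondrial members, against 0.03 for all genes. The summed neutrophil markers had a median of 414 CPM against 170 CPM in BCP and the fibroblast and stromal markers 18745 against 34380 CPM, both with overlapping ranges. Of the nuclear members, 35 of 41 in complex I were higher (median 1.18), 3 of 4 in complex II (0.74), 8 of 9 in complex III (1.23), 11 of 17 in complex IV (1.28) and 10 of 17 in complex V (0.91).

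The animals of this group were far apart. Cox7b, a small subunit of complex IV that had the lowest p, stood at 231, 164, 142 and 48.5 CPM against 57.8, 70.9, 93.4 and 39.97 CPM in BCP, so that replicate 4 lay inside the BCP range. Its log2 fold change was 1.16 ± 0.37 (SE, unadjusted p = 0.00505, adjusted p = 0.614), and an exact two-sided permutation test gave p = 0.114. Ndufv3 showed the same form, at 194, 129, 95.4 and 48.3 CPM. Cox6c2 (2.00 ± 0.66, SE, log2), at 1.34, 0.923, 0.504 and 0.329 CPM, did not overlap BCP at 0.117, 0.311, 0.233 and 0.0629 CPM. A floor of 3 counts was 0.0377, 0.0439, 0.0401 and 0.284 CPM in these BCP+MSC+Treg libraries, so only replicate 4 was near it. In BCP the floor was 0.205, 0.0556, 0.0223 and 0.213 CPM, and replicates 1 and 4 lay below it. The sparsely counted mt-Co3 had 12.5, 46.1, 6.22 and 1.07 CPM (2.94 ± 0.95, SE), where replicate 2 stood far above the rest. Ranges of the complexes followed the same animals: complex III, for example, ran from 5.79 to 8.44 in mean log2 CPM.

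Of the central subunits, Ndufv1 and Ndufs1 of complex I had log2 fold changes of 0.97 ± 0.37 and 0.37 ± 0.28 (SE). Sdha had 0.28 ± 0.29 and Sdhb 1.02 ± 0.41. Uqcrfs1, Cyc1 and Uqcrc1 of complex III had 1.18 ± 0.47, 0.92 ± 0.41 and 0.73 ± 0.34. Cox4i1 had 1.24 ± 0.47 and Cox5a 1.43 ± 0.65, and the F1 subunits Atp5a1 and Atp5b had 0.44 ± 0.26 and 0.29 ± 0.30. Sdha, Ndufs1, Uqcrc2 and Atp5b were near the low end of their complexes. The count rested on single animals: without BCP+MSC+Treg replicate 1, the library with the most Ucp1, 4 members were higher (2.26% of all genes), and without replicate 4 83 were (9.35%). Without the 3 libraries with brown adipocyte markers, 8 members were higher (2.21% of all genes). With the short-minus-long offset as a covariate 0 members were higher (1.56% of all genes) and the nuclear median was 0.14, and with the muscle markers 38 (2.67% of all genes), at a median of 0.80.

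Against BCP+MSC, which differ from the 2 groups by the priming or the Treg alone, few members passed. The BCP+MSC animals serve both comparisons. In BCP+MSC+RvE1 1 member was higher at an unadjusted p under 0.05 and 0 lower, where 1.33% and 1.92% of all genes were. In BCP+MSC+Treg 2 were higher and 0 lower, where 1.29% and 1.42% of all genes were. The adjusted p was passed by 0 members in both (0% of all genes, edgeR's quasi-likelihood test), and by 0 with DESeq2. The 1 was Ndufb4c, a near-silent relative of Ndufb4, which stayed at or under 1.05 CPM in all libraries. It was among the 2 for BCP+MSC+Treg as well, beside mt-Co3. Without BCP+MSC+Treg replicate 4, 29 members were higher in that comparison, where 1.87% of all genes were. The median log2 fold change of nuclear members was 0.54 with priming and 0.53 with Treg, with 94 and 96 of the 101 members above 0, and all-gene medians of -0.04 and -0.03. Neutrophil markers summed to 252 to 430 CPM in BCP+MSC+RvE1 against 109 to 211 CPM in BCP+MSC, without overlap. Their mean log2 CPM did not overlap either, at 2.78 to 3.49 against 1.86 to 2.70. In BCP+MSC+Treg the sums ran from 110 to 757 CPM, with overlap. The part of these cells in the members' values was not tested. With the short-minus-long offset as a covariate 0 members were higher and 0 lower with priming (1.24% and 1.25% of all genes) and with Treg (1.01% and 1.45%), at nuclear medians of 0.08 and 0.13. With the muscle markers 0 were higher in either (1.29% and 1.34% of all genes), at medians of 0.19 and 0.20.

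Ndufb3 of complex I (log2 fold change 0.96 ± 0.54, SE) for RvE1, and Cox8b of complex IV (1.81 ± 0.99, SE) for Treg, were among the well-counted members with the lowest p, with overlapping groups. In the direct comparison of Treg with RvE1 priming, 0 members passed an adjusted or an unadjusted p under 0.05 (0% of all genes adjusted; 1.23% higher and 1.14% lower unadjusted), and by DESeq2 0 passed the adjusted p. The median was -0.02 for nuclear and 0.02 for mitochondrial members. The lowest p belonged to mt-Co3 (1.36 ± 0.89, SE), Cox8a (0.42 ± 0.43) and Cox6c2 (0.61 ± 0.62).

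Treg depletion was examined by comparing (dep)BCP+MSC with BCP+MSC, the 1 comparison of the 8 in which any gene passed an adjusted p. No member passed an adjusted p under 0.05 in edgeR's quasi-likelihood test, where 3.92% of all genes did, and the lowest adjusted p among members was 0.110. At an unadjusted p under 0.05, 0 members were higher and 2 lower, against 9.66% and 10.7% of all genes. The median was -0.07 for nuclear and 0.25 for mitochondrial members, against -0.04 for all genes. The summed fibroblast and stromal markers ran from 5531 to 13635 CPM, below the BCP+MSC animals at 15898 to 37486 CPM. By complex the nuclear medians were -0.13 in complex I, 0.02 in II, 0.00 in III, -0.16 in IV and -0.16 in V. The 7 well-counted mitochondrial genes all had log2 fold changes above 0, from 0.10 (mt-Nd2) to 0.63 (mt-Co1), and none passed.

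The 2 lower members were minor isoforms of complex IV. Cox6b2, known as a testis isoform (ENSMUSG00000051811.14, chromosome 7, 4751792 to 4753094), had 0.997, 1.54, 1.43 and 1.93 CPM in (dep)BCP+MSC and 3.82, 1.97, 4.95 and 2.55 CPM in BCP+MSC. The groups did not overlap, with a log2 fold change of -1.15 ± 0.41 (SE, unadjusted p = 0.00906). DESeq2 gave -1.11 with an adjusted p of 0.0344, the 1 member that passed there, where 9.38% of all genes did. The common isoform Cox6b1 had -0.26 ± 0.47 (SE). Cox4i2 had 0.498, 2.12, 2.00 and 2.86 CPM, which overlapped BCP+MSC (-1.19 ± 0.54, SE, unadjusted p = 0.0387).

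With the short-minus-long offset as a covariate, 4 members passed the adjusted p as higher, where 8.8% of all genes were called, and 19 were higher at an unadjusted p, where 12.4% of all genes were. Among these were Ndufa6 (log2 fold change 0.71, adjusted p 0.0097 by edgeR's quasi-likelihood test), Ndufs3 (0.75, 0.0160) of complex I and Atp5l (0.55, 0.0483) of complex V. Without the covariate their log2 fold changes were 0.32, 0.39 and 0.25, with adjusted p of 0.74, 0.69 and 0.83 by the same test. With the muscle markers as a covariate in its place, 1 member was higher and 10 lower at an unadjusted p, where 10.7% and 11.2% of all genes were. The log2 fold changes of Ndufa6, Ndufs3 and Atp5l were then -0.065, -0.0004 and -0.15. The nuclear median was 0.20 with the offset and -0.44 with the muscle markers. 

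Local RvE1 injection in depleted mice was compared with depletion alone, for which no vehicle injection is named. The (dep)BCP+MSC animals also serve the comparison above. No member passed the adjusted p (0% of all genes, edgeR's quasi-likelihood test), nor did any by DESeq2. At an unadjusted p under 0.05, 2 were higher and 1 lower, where 3.46% and 3.96% of all genes were. Nuclear and mitochondrial members went apart here, with medians of 0.49 and -0.36 (-0.38 for the 7 well-counted genes) against 0.00 for all genes. This difference was not tested, and the nuclear-minus-mitochondrial mean of log2 CPM overlapped between the groups, at -0.01 to 1.44 and -0.38 to 0.55. The summed brown adipocyte markers had a median of 123 CPM against 11.0 CPM in (dep)BCP+MSC, and the B cell markers 18.6 against 3.18 CPM. Both had overlapping ranges. Replicate 3, the highest of the injected group for nuclear members at 6.97 log2 CPM, had 157 counts of Ucp1. The part of these cells in the members' values was not tested. The higher members were mt-Co3 (2.24 ± 0.92, SE, log2), at 2.94, 40.6, 10.2 and 2.07 CPM with 1 far higher animal, and Cox6c2 (1.37 ± 0.66, SE), at 0.397, 0.283, 1.49 and 0.533 CPM. The lower was Ndufa11b, near the floor of counts, at 0.0234, 0.0135, 0 and 0 CPM against 0.0997, 0, 0.0470 and 0.231 CPM. Cox4i1, as a well-counted member, had 679, 619, 1501 and 542 CPM against 386, 627, 389.7 and 732 CPM, with overlap (0.65 ± 0.46, SE). The direction of the nuclear members depended on the covariate. With the muscle markers 28 members were higher and 0 lower (5.74% and 5.58% of all genes), at a nuclear median of 0.70, and with the short-minus-long offset 0 were higher and 4 lower (3.15% and 3.47%), at a median of -0.17.

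A test for any difference among the 6 groups called 0 members at an adjusted p under 0.05 (edgeR's quasi-likelihood test; lowest 0.153), where 4.75% of all genes were called. At an unadjusted p under 0.05 it called 6 members, where 20.4% of all genes were: mt-Co3, Cox6b2, Cox7a1, Ndufv3, Cox6c2 and Ndufs4. Without BCP+MSC+Treg replicate 4 it called 67 members (23% of all genes), with any other animal left out 3 to 19, and with the muscle markers as a covariate 17 (20.7% of all genes). DESeq2's likelihood ratio test called 4 at the adjusted p, namely mt-Co3, Cox7a1, Cox6b2 and mt-Co2, all of complex IV, where it called 13% of all genes.

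Complex IV has muscle-type and general isoforms of several subunits, and these are given in pairs, with no test of the difference between isoforms. Cox8b, the heart, muscle and brown fat isoform (ENSMUSG00000025488.9, chromosome 7, 140898945 to 140900446), had 121, 93.6, 55.9 and 48.7 CPM in BCP+MSC+RvE1 and 8.63, 31.0, 25.5 and 4.53 CPM in BCP. All 4 BCP+MSC+RvE1 animals were higher, by a log2 fold change of 2.19 ± 1.00 (SE, unadjusted p = 0.0426). Its general counterpart Cox8a had 161, 119, 73.5 and 209 CPM and 125, 143, 158 and 75.8 CPM, with wide overlap (0.17 ± 0.43, SE). In BCP+MSC+Treg Cox8b had 371, 108, 70.7 and 7.32 CPM, highest in replicate 1, the library with the most Ucp1, and lowest in replicate 4. In BCP+MSC it had 53.4, 1.57, 61.0 and 42.9 CPM, with replicate 2 far below the rest.

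Cox7a1 followed the same animals in the groups without toxin. It had 103, 78.7, 52.1 and 46.5 CPM in BCP+MSC+RvE1 against 6.24, 28.7, 25.8 and 5.22 CPM in BCP, without overlap (2.08 ± 0.93, SE, log2), and 43.1, 1.34, 44.0 and 46.0 CPM in BCP+MSC. In (dep)BCP+MSC it was at 6.98, 7.15, 8.16 and 27.2 CPM and in (dep)BCP+MSC+RvE1inj at 24.0, 15.6, 38.4 and 4.80 CPM. The muscle fibre markers summed to 30526 to 48068 CPM in (dep)BCP+MSC and to 454 to 33337 CPM in BCP+MSC. Their part in the Cox7a1 values was not tested. For Cox7a1 the log2 fold change of (dep)BCP+MSC against BCP+MSC was -1.43 ± 0.92 (SE, unadjusted p = 0.134, edgeR's quasi-likelihood test). BCP+MSC replicate 2 lay below all (dep)BCP+MSC animals. Its counterpart Cox7a2 had 62.9, 119.6, 68.8 and 134 CPM in (dep)BCP+MSC and 117, 48.4, 160.3 and 106 CPM in BCP+MSC (-0.16 ± 0.45, SE).

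Cox6a2 had a different order. It was highest in (dep)BCP+MSC, at 141, 245, 124 and 202 CPM, where BCP+MSC had 127, 1.72, 89.0 and 94.9 CPM (1.19 ± 0.87, SE, log2). The groups overlapped only through replicate 1 of BCP+MSC, and the exact two-sided permutation test gave p = 0.0571. BCP+MSC+RvE1 had 168, 93.0, 121 and 87.1 CPM against 14.9, 74.7, 54.9 and 12.3 CPM in BCP, without overlap (1.58 ± 0.88, SE). The general isoform Cox6a1 had 242, 569.9, 90.3 and 313 CPM and 126, 141, 189.7 and 87.7 CPM in the same groups, with overlap (1.16 ± 0.69, SE). Of the other pairs, Ndufa4 had 1.43 ± 0.53 and Ndufa4l2 0.65 ± 0.52 in BCP+MSC+RvE1 against BCP, and Cox6b1 1.31 ± 0.47 and Cox6b2 0.23 ± 0.40 (SE, log2). In BCP+MSC+RvE1 against BCP the muscle-type isoforms Cox8b, Cox7a1 and Cox6a2 had log2 fold changes of 1.13, 1.09 and 0.32 with the muscle markers as a covariate, and of 0.21, 0.37 and 0.26 with the short-minus-long offset. The summed brown adipocyte markers had a median of 10.7 CPM in BCP against 7.19 CPM in the RvE1-primed constructs, with ranges of 8.94 to 23.4 and 5.06 to 29.9 CPM. Their mean log2 CPM reached higher in the RvE1-primed constructs, at -1.64 to 1.10 against -2.45 to -0.45 in BCP. Both measures overlapped.

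**Figure D5:**
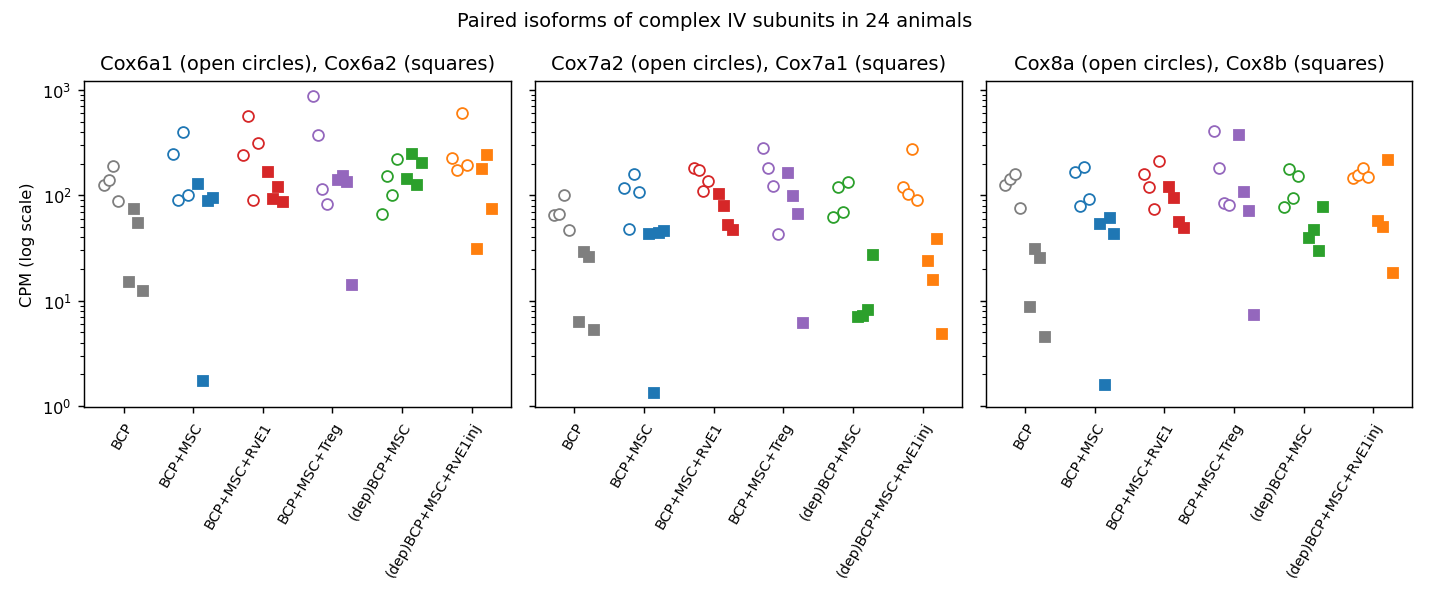
CPM (log scale) of the general isoforms (open circles) and the muscle-type isoforms (squares) of 3 complex IV subunits, 1 point per animal by group. BCP+MSC replicate 2 has 1.72, 1.34 and 1.57 CPM of Cox6a2, Cox7a1 and Cox8b, and Cox7a1 is at 6.98 to 27.2 CPM in (dep)BCP+MSC while Cox6a2 is at 124 to 245.

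Promoters were read from RefSeq (GRCm38.p6) for 67 members, which have 72 annotated start windows. Cox6a1 and Cox8b are shown, a general and a muscle-type isoform, as the 250 bases before the start site, 5′ to 3′ on the minus strand (chr5:115348959-115349208 and chr7:140900447-140900696). Capitals mark matches to the NRF1 motif GCGCATGCG and the GABPA motif CCGGAAG, searched on both strands. The NRF1 letters match on both strands of Cox6a1 at overlapping places, and Cox8b holds no match.
Cox6a1: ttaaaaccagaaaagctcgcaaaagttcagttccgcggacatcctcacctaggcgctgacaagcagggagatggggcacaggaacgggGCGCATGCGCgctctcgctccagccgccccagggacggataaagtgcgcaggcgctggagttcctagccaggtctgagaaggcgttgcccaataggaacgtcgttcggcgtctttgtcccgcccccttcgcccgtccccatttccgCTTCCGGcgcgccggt
Cox8b: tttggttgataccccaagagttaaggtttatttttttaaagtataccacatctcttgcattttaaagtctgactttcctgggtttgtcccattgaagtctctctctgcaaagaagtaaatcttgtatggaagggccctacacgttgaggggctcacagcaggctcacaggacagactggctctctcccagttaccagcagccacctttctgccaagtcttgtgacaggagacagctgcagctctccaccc
Over windows from 250 bases before to 50 after the start, the NRF1 motif was found in 6 of the 72 member windows (8.33%) and in 1.45% of all 32851. The GABPA motif was found in 12 (16.7%) against 6.91%. The MEF2 motif CTANNNNTA, of a muscle factor, was found in 12 member windows (16.7%) against 19.0% of all, among them that of Cox7a1, and the oestrogen-related receptor motif TCAAGGTCA in 1 against 0.387%. These are matches of letters only.

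Other mitochondrial gene lists were counted in the same fits. In the RvE1-primed and the Treg constructs, each against the shared BCP animals, 15 and 14 of 44 respiratory chain assembly factors were higher at an unadjusted p under 0.05, with medians of 0.52 and 0.41 (log2), where 8.86% and 4.98% of all genes were higher. Of 77 mitochondrial ribosomal proteins, which translate the 13 mitochondrial messages, 46 and 33 were higher (0.72 and 0.65). Of 17 genes of the tricarboxylic acid cycle 3 and 4 were higher (0.35 and 0.48), of 17 genes that keep and transcribe mitochondrial DNA 6 and 0 (0.31 and 0.26), and of 11 carriers and uncouplers 5 and 2 (0.75 and 0.58). Of 8 regulators of mitochondrial biogenesis, among them Ppargc1a, Nrf1 and Esrra, 0 were higher in either, and 1, Gabpa, was lower in BCP+MSC+RvE1. Cytosolic ribosomal proteins, a list added after seeing the data that holds short and abundant messages outside mitochondria, had 52 and 24 of 83 higher (0.85 and 0.73). With the short-minus-long offset as a covariate, 0 and 0 assembly factors, 0 and 1 mitochondrial ribosomal proteins and 0 and 0 cytosolic ones were higher (1.71% and 1.56% of all genes). With the muscle markers 7 and 2, 21 and 7, and 6 and 2 were (4.19% and 2.67% of all genes). Only the respiratory chain members were left out of the genes behind the offset. Genes of these other lists can be part of that covariate, so the counts with it cannot show how they vary apart from it.

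In (dep)BCP+MSC against BCP+MSC, 2 genes of these lists rose at an adjusted p under 0.05 (edgeR's quasi-likelihood test). Idh2, the mitochondrial NADP-dependent isocitrate dehydrogenase, had 261 ± 86.8 CPM (SD, n = 4) against 100.5 ± 23.1 CPM, with a log2 fold change of 1.38 ± 0.27 (SE, adjusted p = 0.00429). Tfb2m, a factor that starts transcription of mitochondrial DNA, had 17.9 ± 2.53 against 10.1 ± 3.40 CPM, with 0.82 ± 0.23 (SE, adjusted p = 0.0386). Both were called beside 3.92% of all genes in this comparison. With the muscle markers as a covariate Idh2 had a log2 fold change of 1.16 (adjusted p = 0.0108) and Tfb2m 0.79 (adjusted p = 0.0647), close to its value without the covariate. They had 1.42 and 0.81 with the short-minus-long offset (adjusted p = 0.00159 and 0.0152). Of the 44 assembly factors 3 were higher and 4 lower at an unadjusted p under 0.05, and of the 77 mitochondrial ribosomal proteins 2 and 2, where 9.66% and 10.7% of all genes were.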

How the data were processed

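RNA of whole constructs from 24 animals, 6 groups of 4 by the labels, was sequenced as stranded mRNA libraries. The deposited values are raw counts per gene that the authors made with HISAT2 2.0.5 and featureCounts 1.5.2 on GENCODE M13 (GRCm38), with no strand option and without reads that aligned to several places. Symbols came from a GENCODE annotation of the same build for 50376 of 51138 identifiers. Of the members, 36 share exon bases with another gene, none of them over 50%, most in Atp5o (44.0%). Depth was 8482701 to 144417743 counts, and a floor of 3 counts was 0.354 to 0.0208 CPM and covers counting error only.

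Counts of 30564 genes with at least 10 reads were fitted with edgeR 4.0.16 in R 4.3.3 (TMM, robust quasi-likelihood, 6 groups, no covariate), with Benjamini-Hochberg adjustment over all genes. Log2 CPM used a prior count of 2. The study's methods name DESeq2, which was run here as an alternative (1.42.0). Fits were tested on simulated counts for BCP+MSC+RvE1 against BCP, on 30047 genes: at a log2 fold change of 1, 3 of 50 genes passed the adjusted and 34 the unadjusted threshold, and at 2, 41 and 50 did. P-values measure the spread between animals, and exact permutation tests of single genes used the 70 arrangements of 4 against 4. The columns of (dep)BCP+MSC are numbered 1, 2, 4 and 5 and its samples 1 to 4, so columns 4 and 5 carry no replicate number.

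Genes named are the 13 mitochondrial genes, central subunits, isoforms, the 3 members with the smallest p in each comparison, and the highest and lowest member of each complex in BCP+MSC+RvE1 against BCP. Ndufb3, Ndufa6, Ndufs3, Atp5l, Idh2 and Tfb2m lie outside this rule, and the choice of these was made with their values in view. 1 member that the rule names is not reported here. The members and lists were chosen with earlier results of these data known. Copies of mitochondrial genes were found with BLAST 2.17.0, and promoters are those of RefSeq (GRCm38.p6). Alternatives were RLE normalization, other filters, a replicate block, muscle marker and short-gene covariates, 2-group fits, DESeq2, and animals left out. Tables and figures were made in Python 3.11.15 with pandas 2.3.3 and matplotlib 3.10.9.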

Additional observations from a re-analysis of the deposited data

Results flagged for a closer look

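In 162 sets of 4 animals (27 quantities in 6 groups), 11 had an animal far from the other 3 by Dixon's criterion, which chance marks in about 1 of 20 sets. BCP+MSC replicate 2, the library with the fewest muscle marker reads, accounted for 5 of them, all low. Its nuclear complex III mean was 5.87 log2 CPM against 7.21 to 7.23 in the others. Its muscle-type isoforms were at 0.82 (Cox6a2), 0.46 (Cox7a1) and 0.69 (Cox8b) log2 CPM, against 6.48 to 6.99, 5.43 to 5.53 and 5.42 to 5.93. Its mt-Co3, one of the sparsely counted mitochondrial genes, was at -0.0029 against 2.23 to 2.50.

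(dep)BCP+MSC+RvE1inj replicate 3, where Ucp1 had 157 counts, was high for Uqcrfs1, at 7.92 log2 CPM against 6.83 to 6.98, and for mt-Co2, at 4.78 against 2.25 to 2.39. BCP+MSC+Treg replicate 4 was low for Cox6a2, at 3.81 against 7.07 to 7.25. The (dep)BCP+MSC column numbered 5 was high for Cox7a1, at 4.77 against 2.81 to 3.04. BCP+MSC replicate 3 was high for Cox4i2, at 3.47 against 0.90 to 1.27. BCP replicate 1 was low for Ndufa4l2, at 4.02 against 5.53 to 5.80.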

How the results depend on the processing

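Counts of members at an adjusted p under 0.05 were 0 in every comparison under RLE normalization, both other filters, the replicate block, the muscle marker covariate, 2-group fits and each animal left out. The exceptions were (dep)BCP+MSC against BCP+MSC, with 4 under the short-gene covariate and 1 by DESeq2, and the test of any difference, with 2 and 4. Counts at an unadjusted p changed more. In BCP+MSC against BCP, 2 members were higher, which became 1 under the short-gene covariate and in the 2-group fit, 4 by DESeq2, 6 with the muscle covariate and 0 to 35 with 1 animal left out. In BCP+MSC+RvE1 against BCP, 69 became 34 with the muscle covariate, 0 higher and 1 lower with the short-gene covariate, and 39 to 73 with 1 animal left out. In BCP+MSC+Treg against BCP, 71 became 38, 0, and 8 without the libraries with brown adipocyte markers, and 4 to 83 with 1 animal left out. Against BCP+MSC, the 1 for BCP+MSC+RvE1 became 2 under RLE, without a filter and by DESeq2, 4 in the 2-group fit, 0 with either covariate, and 0 to 4 with 1 animal left out. The 2 for BCP+MSC+Treg became 0 with either covariate, 1 in the 2-group fit and without the brown adipocyte libraries, and 0 to 29 with 1 animal left out.

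For (dep)BCP+MSC against BCP+MSC, 0 higher and 2 lower became 1 higher without a filter, 1 and 10 with the muscle covariate, 19 and 1 with the short-gene covariate, 1 lower in the 2-group fit, and 0 to 5 higher and 1 to 3 lower with 1 animal left out. For (dep)BCP+MSC+RvE1inj against (dep)BCP+MSC, 2 higher and 1 lower became 2 lower under RLE, 0 lower with the filterByExpr filter, 1 higher and 2 lower without a filter, 28 and 0 with the muscle covariate and 0 and 4 with the short-gene covariate. They became 1 and 0 without the brown adipocyte libraries, 0 lower in the 2-group fit, and 0 to 2 higher and 0 to 1 lower with 1 animal left out. The 6 of the test of any difference (20.4% of all genes) became 17 with the muscle covariate (20.7%) and 3 to 67 with 1 animal left out. The highest, 67, was without BCP+MSC+Treg replicate 4 (23% of all genes). By DESeq2 the 6 became 33, and as the share of all genes at this threshold is not given, this count cannot be read against it. The cause of these changes was not tested.

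Same-numbered animals had a median correlation of deviations of -0.034 over 50 pairs (-0.69 to 0.68). The 150 pairs with different numbers had -0.025 (-0.73 to 0.80). Pairing by number was not seen in these values, which cannot show that it is absent. With the replicate number as a block, without the 2 columns that carry none, the counts were 1 higher in BCP+MSC against BCP, 0 with priming and 0 with Treg, each against BCP+MSC, 1 lower in (dep)BCP+MSC against BCP+MSC, and 0 higher and 0 lower in (dep)BCP+MSC+RvE1inj.

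Some single members turned in direction, among them members with large log2 fold changes: Cox5a had 1.52 and Cox6a1 1.16 in BCP+MSC+RvE1 against BCP. Of the 101 members, 26 turned there and 16 for the Treg constructs against BCP with the short-gene covariate, and 3 and 1 with the muscle covariate. With the short-gene and the muscle covariate, 38 and 2 turned in BCP+MSC against BCP and 34 and 33 in (dep)BCP+MSC against BCP+MSC. In (dep)BCP+MSC+RvE1inj against (dep)BCP+MSC 66 and 8 did. Against BCP+MSC, 22 and 18 turned with priming and 14 and 11 with Treg, and between Treg and priming 23 and 18. Ndufa6 went from 0.93 to -0.18 in BCP+MSC+RvE1 against BCP and from 0.99 to -0.01 in BCP+MSC+Treg against BCP, with the short-gene covariate. With the short-gene covariate, among the other named members, in BCP+MSC+RvE1 against BCP, log2 fold changes became -0.12 (Cox5a), -0.0068 (Atp5b), -0.54 (Cox6a1), -0.71 (Cox8a) and -0.46 (Cox6b2). For the Treg constructs against BCP they became -0.11 (Cox5a), -0.13 (Cox6a1), -0.23 (Cox8a), -0.29 (Cox6b2) and -0.082 (Atp5g3). Cox8a in BCP+MSC+RvE1 against BCP became -0.021 with the muscle covariate, and -0.088 to 0.38 with 1 animal left out (-0.0098 without BCP replicate 4). Without the brown adipocyte libraries, and without BCP+MSC+Treg replicate 1 alone, BCP+MSC+Treg against BCP gave -0.034 in both (Sdha), -0.026 in both (Atp5b), -0.12 in both (Cox8a) and -0.089 in both (Cox6b2), and Cox8a against BCP+MSC+RvE1 gave -0.28 in both. The highest values with 1 animal left out were 0.48, 0.50, 0.86, 0.66 and 0.68. Nuclear minus mitochondrial means became -5.30 in BCP, -4.68 with MSC, -4.34 with RvE1 priming, -4.66 with Treg, -5.23 with depletion and -4.52 with depletion and injected RvE1, with the 7 well-counted mitochondrial genes alone, since the 6 low genes were left out. With 1 animal left out they ranged from -0.08 to 0.08, -0.04 to 0.59, 0.29 to 0.72, 0.15 to 0.49, -0.23 to 0.08 and 0.30 to 0.78 in that order. The 6 sparsely counted mitochondrial genes and Ndufa11b, Ndufb4c and Cox6c2 are limited by depth.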
